A study of Mus musculus with 9 samples.

Results

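The comparison set 3 lungs of mice given Codonopsis pilosula (codonopsis) against 3 lungs of control mice and asked which miRNAs differed between them. The members were chosen from the labels and the detection calls alone. These are the 6 arrays of both groups, out of 9 arrays in the series, and the 383 of 1881 miRNAs that were detected on all 3 arrays of at least 1 of the groups. Codonopsis pilosula is a root used in traditional Chinese medicine, and its label gives a dose of 15 g per kg and day 30. The labels name no treatment for the controls. The other 3 arrays, labelled D-galactose and sodium nitrite, day 42, were not compared here. They helped to estimate the spread, to choose the miRNAs used for scaling and to describe how the arrays correlate. The protocol describes the plant as an intervention in an aged-mouse model, but nothing in the codonopsis labels states that those mice received D-galactose or sodium nitrite. They give no strain or age. Codonopsis 1, codonopsis 2 and control 1 came from male mice, and codonopsis 3, control 2 and control 3 from female mice.

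A miRNA is a short RNA that pairs with messenger RNAs mainly through its seed, bases 2 to 8 from the 5′ end, and lowers their translation and stability. Each hairpin precursor can give a mature miRNA from its 5′ arm and from its 3′ arm, named 5p and 3p, and usually 1 arm dominates. In lung, miR-126a is made by endothelium, the miR-200 family by epithelium, miR-34b, miR-34c and miR-449 by multiciliated cells, miR-143 and miR-145a by smooth muscle, and miR-451a and miR-144 by red blood cells. The families of miR-297, miR-466 and their relatives miR-467 and miR-669 expanded in rodents, mostly in an intron of the imprinted gene Sfmbt2. Their 5p arms are rich in UG repeats and their 3p arms in CA repeats, and their members are nearly identical, so signal listed under 1 entry can come from another.

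The following 8 miRNAs had higher means in codonopsis lungs. They were chosen after their values were seen, mostly for UG-rich sequence, and do not stand for the higher miRNAs in general, most of which lack UG repeats (sequences from RefSeq, GRCm38.p6). The first 2 were detected on no control array, and the other 6 were detected on all 6 arrays. Capitals mark the seed.
miR-3097-5p: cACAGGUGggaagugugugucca
miR-670-5p: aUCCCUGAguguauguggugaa
miR-574-5p: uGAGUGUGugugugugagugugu
miR-1187: uAUGUGUGuguguauguguguaa
miR-3082-5p: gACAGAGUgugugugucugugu
miR-669n: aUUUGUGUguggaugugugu
miR-466j: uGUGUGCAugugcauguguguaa
miR-32-3p: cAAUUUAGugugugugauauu

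These 8 miRNAs have 8 distinct seeds, so no pair of them shares one. Between 60.9% and 91.3% of their bases are U or G, which follows from how they were chosen. The miR-3097 hairpin lies within Rgs12 on chromosome 5, miR-574 within Fam114a1 on chromosome 5 and miR-670 within Mir670hg on chromosome 2. The partner arm of miR-574-5p and 3 other entries with CA repeats are shown because their values turned on 1 control array.
miR-574-3p: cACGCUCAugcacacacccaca
miR-466i-3p: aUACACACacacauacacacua
miR-466q: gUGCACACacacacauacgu
miR-467f: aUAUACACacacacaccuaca

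The 6 lower miRNAs shown here are examples, named in the results below, out of 23 with a RefSeq sequence and without such repeats that were detected on all 6 arrays and stood below every control.
miR-186-5p: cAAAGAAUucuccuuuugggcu
miR-3963: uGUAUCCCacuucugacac
miR-1231-5p: uCUGGGCAgagcugcaggagaga
miR-5128: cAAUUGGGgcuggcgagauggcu
miR-6516-3p: uCAUGUAUgauacugcaaacag
miR-21a-5p: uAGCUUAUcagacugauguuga

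Between 408 and 468 miRNAs were detected on the codonopsis arrays against 484 on control 1, 448 on control 2 and, on control 3, fewer than on any other array of both groups. All codonopsis arrays lay on slide 1 and all control arrays on slide 2. In this comparison a slide effect cannot be told apart from a group effect. Control 1 stood apart from every other array. Its 75th percentile of signal was 244.5, against 399.6 to 538.2 on the other arrays of both groups, and its correlations with the rest of the series had a median of 0.886, where those of the other arrays of both groups had medians of 0.951 to 0.969. It differed by at least 1 on the log2 scale from control 2 for 53 of 294 miRNAs and from control 3 for 62, while controls 2 and 3 differed that much for 7. Among the codonopsis arrays the count was 13 to 23. The counts that lead the results are therefore also given without it. Control 1 was also the only male control. Without it, codonopsis lungs of both sexes are set against female controls, so sex and group are partly mixed. Since control 1 was singled out by its values, p-values without it are no support for a difference. Lung markers were present, with miR-126a-3p, miR-200b-3p, miR-34b-5p and miR-143-3p detected on all 6 arrays. The brain miRNA miR-124-3p was detected on none, and the liver miRNA miR-122-5p on 2 codonopsis arrays and 1 control array.

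Levels below are log2 values of the processed signal divided by the 75th percentile of the array, and differences are codonopsis minus control on that scale, with the standard error (SE) from limma. Levels of different miRNAs are not comparable, since their probes differ. In all, 4 miRNAs were higher in codonopsis lungs at an adjusted p under 0.05 (limma with Benjamini-Hochberg adjustment), which is 1.04% of those tested, and 0% were lower. The smallest adjusted p among the lower ones was 0.062 in limma. At an unadjusted p under 0.05 limma gave 29 higher and 29 lower. All 4 higher miRNAs were dim, and 3 of them were entries of the miR-297 and miR-466 families. Only miR-466f-5p was detected on all 6 arrays. The others, miR-466a-5p, miR-3097-5p and miR-297c-5p, were tested only through their detection on the codonopsis arrays. Their direction and p-values are therefore no support for a difference.

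For miR-466f-5p the levels were −4.70, −4.88 and −4.91 on the codonopsis arrays and −6.97, −6.48 and −6.28 on the control arrays. It was detected on all 6 arrays and rose by 1.75 (SE 0.23, limma adjusted p = 0.028). For miR-466a-5p, from the same family, the levels were −4.93, −5.18 and −4.83 in codonopsis lungs and −8, −7.19 and −6.50 in control lungs, where −8 is the floor. The miR-466a-5p probes were detected on no control array, and its difference was 2.25 (SE 0.37, limma adjusted p = 0.038). With each control set no lower than the lowest detected signal of its array, the rise was 3.75-fold. That fold is no lower bound across settings, since with the brightest probe the difference was 1.76. Both groups are separate for these miRNAs, and the codonopsis arrays lie close together.

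The levels of miR-3097-5p, an entry outside these families with no role given here, were −4.69, −5.08 and −4.95 in codonopsis lungs and −7.03, −6.61 and −6.38 in control lungs. Its probes were detected on no control array, and its difference was 1.77 (SE 0.27, limma adjusted p = 0.038). The rise computed as for miR-466a-5p was 3.36-fold, and with the brightest probe the difference was 1.57. For miR-297c-5p the levels were −4.19, −4.50 and −4.29 in codonopsis lungs and −5.56, −5.62 and −5.22 in control lungs, of which 2 detected it. It rose by 1.14 (SE 0.19, limma adjusted p = 0.038). No codonopsis array fell into the range of the controls for any of the 4. Except for miR-466f-5p, these entered through their detection on the codonopsis arrays, so that separation is no support for a difference.

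The processed signals behind these levels were low. For miR-466f-5p they averaged 15.6 in codonopsis and 4.52 in control lungs. The normexp alternative adds an offset of 50 to every signal, which shrinks differences of dim miRNAs towards 0. With it the 4 differences were 0.07 to 0.09, where the 383 tested miRNAs had a median of −0.10. The call was lost for each, and background correction and offset cannot be told apart in that loss. The call was also lost for each with quantile normalization, with the 75th percentile taken over all miRNAs, without scaling or in the deposited log2 table. Without codonopsis 1 or without control 2 no miRNA passed, while 49 passed without control 1.

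**Figure D1:**
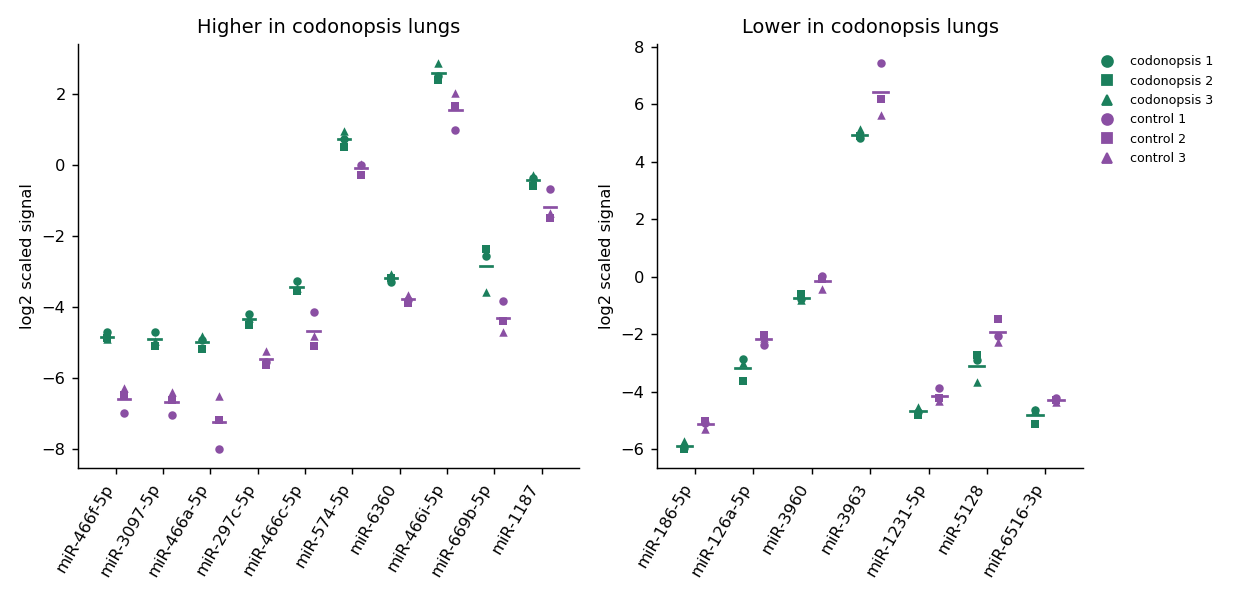
Log2 scaled signal of each array for the miRNAs that passed or had the smallest p among those higher (left) and lower (right) in codonopsis lungs. Points are the 3 codonopsis arrays (green) and the 3 control arrays (purple) and bars are group means. For miR-466f-5p the codonopsis arrays sit between −4.91 and −4.70, all above the control arrays.

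Of the 383 miRNAs, 5.74% had every codonopsis array above every control array and 7.05% had every codonopsis array below. Among the 294 detected on all 6 arrays these shares were 4.08% and 8.5%, or 12 and 25 miRNAs. The split depends on the scaling, since of all tested miRNAs 22 were above and 27 below here, but 43 of 51 were above with quantile normalization. Of the 12 higher ones, 6 were entries of the miR-466, miR-467 and miR-669 families. For miR-466c-5p the levels were −3.26, −3.56 and −3.45 on the codonopsis arrays and −4.13, −5.09 and −4.82 on the control arrays, a difference of 1.25 (SE 0.26, limma adjusted p = 0.062). For miR-466i-5p they were 2.50, 2.40 and 2.87 in codonopsis lungs and 0.99, 1.67 and 2.02 in control lungs, a difference of 1.03 (SE 0.27). For miR-669b-5p they were −2.55, −2.36 and −3.58 in codonopsis lungs and −3.82, −4.38 and −4.71 in control lungs, a difference of 1.47 (SE 0.39). In miR-669b-5p the lowest codonopsis array was only just above the highest control array. None of these 3 passed the threshold.

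Across the 5p and unsuffixed entries of those rodent families, here called the miR-466 group, 35 were on the array, 27 were detected on any of the 6 arrays and 22 were tested. Of these, miR-466a-5p and miR-297c-5p passed after entering through their detection in codonopsis lungs, so they are no support for the group. Of the 16 detected on all 6 arrays, miR-466f-5p passed. Of those 16, 14 were higher and 2 lower, with a median of 0.86, while the median over all 294 such miRNAs was −0.06. The 2 lower entries were miR-466q and miR-467f, whose sequences above carry CA repeats. Without control 1 all 16 were higher, with a median of 1.17. With normexp, whose offset shrinks the differences of dim members, the median was 0.21. Earlier results of these data were known when this list was drawn up, so the count is a description.

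A list of UG-rich miRNAs outside these families had 7 tested members, of which 5 were detected on all 6 arrays. All 5 were higher, and 3 lay above every control, beside 4.08% of all such miRNAs. The groups overlapped for miR-32-3p at 0.63 (SE 0.42) and miR-1224-5p at 0.11 (SE 0.17). Earlier results were known when this list was drawn up, so the count is a description. The 3 without overlap are given. For miR-574-5p, from an intron of Fam114a1, the levels were 0.74, 0.51 and 0.97 in codonopsis lungs and −0.01, −0.29 and 0.04 in control lungs, a difference of 0.83 (SE 0.17, limma adjusted p = 0.062). For miR-1187 they were −0.37, −0.58 and −0.28 in codonopsis lungs and −0.69, −1.48 and −1.36 in control lungs, a difference of 0.76 (SE 0.24). For miR-3082-5p they were 0.13, −0.08 and 0.18 in codonopsis lungs and −0.13, −1.02 and −0.82 in control lungs, a difference of 0.73 (SE 0.24). In these 3 miRNAs every codonopsis array lay above every control array, and for miR-1187 and miR-3082-5p control 1 was the highest control. The unrelated miR-6360 also separated, with −3.30, −3.17 and −3.08 in codonopsis lungs against −3.79, −3.88 and −3.66 in control lungs, a difference of 0.59 (SE 0.13).

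Searching the 243 matched miRNAs detected on all 6 arrays for the letters UGUGUG, on the mature strand only, found 11 (4.53%). All 11 were higher in codonopsis lungs, with a median of 0.63, and 4 of them had no overlap between groups. The letters ACACAC were found in 5, of which 1 was higher, with a median of −1.24. The other 227 had a median of −0.07, with 89 higher. Both letter strings were chosen after the values were seen, so these counts are a description. Across the 243 miRNAs, which share the same 6 arrays, the share of U and G correlated with the difference at r = 0.36 (rho = 0.21), and at r = 0.18 (rho = 0.14) without control 1.

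Control 1 carried most of the negative differences of the CA-repeat entries. For miR-574-3p the levels were −4.22, −3.94 and −5.0 in codonopsis lungs and 0.02, −4.59 and −4.87 in control lungs, a difference of −1.24 (SE 1.17). For miR-466i-3p they were −4.64, −4.11 and −6.37 in codonopsis lungs and 0.19, −5.22 and −5.98 in control lungs, a difference of −1.37 (SE 1.51). For miR-466f-3p they were −4.82, −4.30 and −7.09 in codonopsis lungs and 0.17, −5.42 and −6.23 in control lungs, a difference of −1.57 (SE 1.59). On control 1 each stood 4.75 to 6.0 above the mean of the other controls, and without it the differences were 0.34, 0.56 and 0.43.

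The 3p entries of these families followed the same pattern. All 6 that were detected on every array were lower, with a median of −1.42, but without control 1 the median was 0.28 and 5 of 6 were higher. The scaled signal summed over all 25 such 3p entries on the array, not on the log scale, was 0.27 to 0.55 in codonopsis lungs. In control lungs that sum was 0.30 to 15.8, the highest value being that of control 1. UG-repeat miRNAs on control 1 stood a median of 1.21 above the mean of the other controls, and without it their median difference was 1.00 in place of 0.63.

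**Figure D2:**
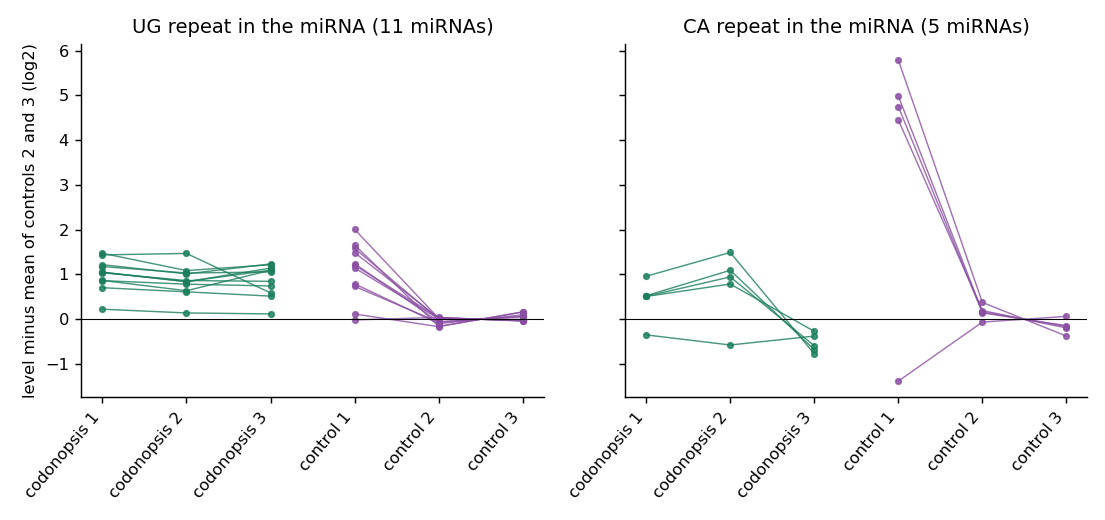
Level of each array minus the mean of controls 2 and 3, on the log2 scale, for 11 miRNAs with UG repeats (left) and 5 with CA repeats (right), one line per miRNA. Codonopsis arrays are green and control arrays purple, and 4 of the 5 CA-repeat miRNAs stand more than 4 above the other controls on control 1.

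Both arms of 28 hairpins were detected on all 6 arrays, and in 17 of these the arms differed in sign. Without control 1 that count was 4. With all arrays, no hairpin had one arm above all controls and the other below. The widest gap was in miR-466f, with 1.75 (SE 0.23) for the 5p arm and −1.57 (SE 1.59) for the 3p arm, but without control 1 these were 1.55 and 0.43. In miR-126a the 5p arm differed by −0.99 (SE 0.22) and the 3p arm by 0.19 (SE 0.18).

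**Figure D3:**
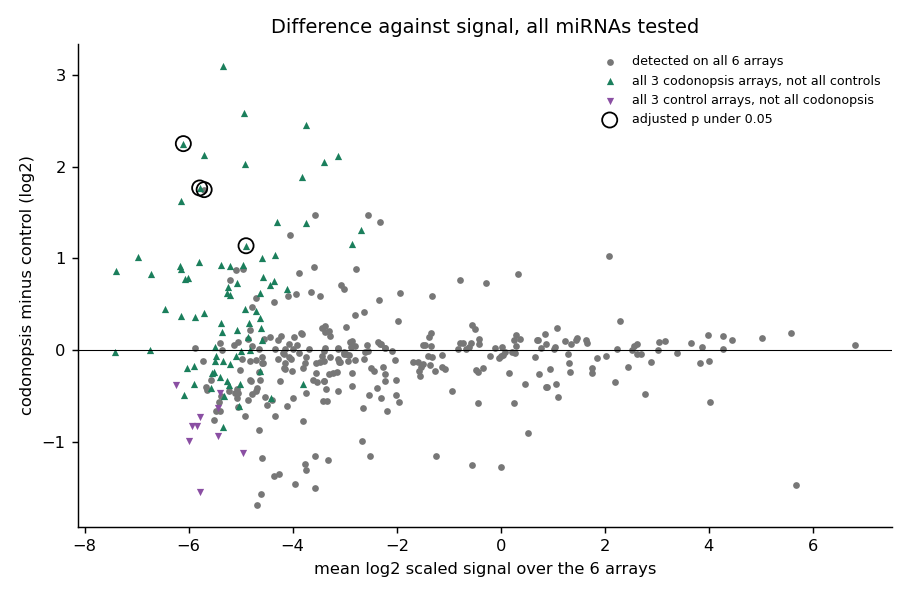
Difference of codonopsis minus control (log2) against the mean log2 scaled signal over the 6 arrays for the 383 tested miRNAs. Grey points were detected on all 6 arrays, green triangles on all codonopsis but not all control arrays and purple triangles on all control but not all codonopsis arrays. The 4 circled miRNAs that passed lie at low signal.

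No miRNA passed as lower, and 25 of those detected on all 6 arrays lay below every control. The lowest p among them was that of miR-186-5p, from an intron of Zranb2. Its levels were −5.95, −5.99 and −5.72 in codonopsis lungs and −5.08, −5.02 and −5.29 in control lungs, a difference of −0.76 (SE 0.16, limma adjusted p = 0.062). For miR-126a-5p, the less abundant arm of the endothelial hairpin that lies in Egfl7, the levels were −2.85, −3.64 and −3.0 in codonopsis lungs and −2.37, −2.04 and −2.11 in control lungs, a difference of −0.99 (SE 0.22, limma adjusted p = 0.072). Its 3p arm, which marks endothelium most strongly, had overlapping groups, with 5.87, 5.40 and 5.73 in codonopsis lungs and 5.17, 5.57 and 5.68 in control lungs.

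A further 3 lower miRNAs came from a list of bright entries of uncertain origin. For miR-3963 the levels were 4.81, 4.88 and 5.12 in codonopsis lungs and 7.42, 6.19 and 5.63 in control lungs, a difference of −1.47 (SE 0.42, limma adjusted p = 0.206). Control 1 was again the extreme, and without it the difference was −0.97. For miR-3960 they were −0.79, −0.60 and −0.80 in codonopsis lungs and 0.02, −0.06 and −0.41 in control lungs, a difference of −0.58 (SE 0.16). For miR-5128 they were −2.90, −2.71 and −3.64 in codonopsis lungs and −2.08, −1.48 and −2.25 in control lungs, a difference of −1.15 (SE 0.34). The dim miR-1231-5p and miR-6516-3p differed by −0.54 (SE 0.16) and −0.51 (SE 0.16), also without overlap.

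Detection was not even between the groups. On all 3 codonopsis arrays but not all control arrays 79 miRNAs were detected, against 10 on all 3 control arrays but not all codonopsis arrays. Of the 79, 60 were missing on 1 control array, 13 on 2 and 6 on all 3. The 10 were detected on 1 or 2 codonopsis arrays. Since these miRNAs entered through the group in which they were detected, their direction is no support for a difference.

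The 6 detected on no control array were miR-466a-5p and miR-3097-5p, described above, with miR-670-5p, miR-5709-3p, miR-1306-3p and miR-16-1-3p. For miR-670-5p the levels were −5.12, −5.41 and −5.49 in codonopsis lungs and −6.90, −7.19 and −6.80 in control lungs, a difference of 1.62 (SE 0.30, limma adjusted p = 0.054). The differences of miR-5709-3p and miR-1306-3p were 0.96 (SE 0.30) and 0.89 (SE 0.28), and with normexp both were near 0, at −0.01 and −0.04. Both miRNAs are dim, and the normexp offset shrinks such differences towards 0. For miR-16-1-3p, the minor arm of a hairpin in Dleu2, the difference was 0.45 (SE 0.47), and the groups overlapped.

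Markers of lung cell types are compared next. In a bulk sample fewer cells of a type and less of the miRNA per cell cannot be told apart. No marker of any cell type passed, and the counts below stand beside 4.08% of miRNAs above and 8.5% below every control.

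Multiciliated cell miRNAs were lower on average but overlapped. All 5 detected members were lower, with a median of −0.51, and 4 of the 9 listed, all of the miR-449 family, were detected on no array. The levels of miR-34b-5p were 0.06, 1.55 and 0.92 in codonopsis lungs and 1.39, 1.5 and 1.17 in control lungs, a difference of −0.51 (SE 0.40). Those of miR-34c-5p were −0.85, 0.67 and 0.06 in codonopsis lungs and 0.73, 0.64 and 0.23 in control lungs, a difference of −0.57 (SE 0.41). In both, codonopsis 1 was lowest and codonopsis 2 lay within or near the control range. The summed scaled signal of the list was 1.75 to 5.0 in codonopsis lungs and 3.69 to 4.90 in control lungs.

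Smooth muscle and mesenchymal miRNAs had lower means in codonopsis lungs, and none passed. All 3 smooth muscle members overlapped the controls, with a median of −0.40, among them miR-145a-5p with −2.56, −1.82 and −2.34 in codonopsis lungs and −1.24, −1.73 and −2.06 in control lungs, a difference of −0.57 (SE 0.26) that was −0.35 without control 1. For miR-143-3p, from the same precursor transcript, the levels were 0.42, 1.01 and 0.57 in codonopsis lungs and 1.16, 1.20 and 0.83 in control lungs, a difference of −0.40 (SE 0.19). The 4 mesenchymal members had a median of −0.27, and miR-199a-5p at −0.45 (SE 0.15) and miR-214-3p at −0.41 (SE 0.14) lay below every control. Both have a hairpin within Dnm3os, but miR-199a-5p has another within Dnm2, and the array cannot tell its sources apart. The brighter miR-199a-3p at −0.09 (SE 0.19) and miR-199b-5p at −0.14 (SE 0.18) overlapped, and both were above 0 with the 75th percentile over all miRNAs and without scaling.

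The muscle miRNAs miR-1a-3p, miR-133a-3p and miR-133b-3p divided the codonopsis arrays. The levels of miR-1a-3p were −1.84, 2.07 and −2.14 in codonopsis lungs and 0.81, 0.40 and 0.69 in control lungs, a difference of −1.27 (SE 1.01). Those of miR-133b-3p were −2.44, 1.51 and −2.64 in codonopsis lungs and 0.62, −0.32 and −0.11 in control lungs, a difference of −1.25 (SE 1.02). Codonopsis 2 lay above all controls and the other codonopsis arrays below them. Without codonopsis 2, miR-1a-3p at −2.62, miR-133b-3p at −2.60 and miR-133a-3p at −2.50 passed as lower (limma adjusted p = 0.021, 0.029 and 0.029). That array is singled out here because its values on these miRNAs stood apart, so the p-values are no support for a difference. The skeletal muscle miRNA miR-206-3p did not follow this pattern, with −4.66, −4.9 and −5.14 in codonopsis lungs and −4.49, −5.83 and −6.43 in control lungs, of which 2 detected it. Its difference was 0.69 (SE 0.45), and without control 1 it was 1.23 and passed (limma adjusted p = 0.023). The summed scaled signal of the list was 0.63 to 9.12 in codonopsis lungs and 2.74 to 4.40 in control lungs. Of the 17 listed members 9 were detected on none of the 6 arrays, while the heart miRNAs miR-208a-3p and miR-499-5p were each detected on 1 codonopsis array. Their relative miR-208b-3p, which lies within Myh7, was tested, so it was detected on every array of at least 1 group. Also tested was miR-133a-5p, with a difference of −1.54 (SE 1.08). The part of striated muscle RNA in the other differences was not tested.

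Blood cell miRNAs did not separate the groups. All 4 erythroid members were higher with a median of 0.18, including miR-451a with 4.70, 5.57 and 4.98 in codonopsis lungs and 5.13, 4.84 and 4.87 in control lungs, a difference of 0.13 (SE 0.26). The leukocyte miRNA miR-142a-3p was at 0.44, −0.41 and 0.17 in codonopsis lungs and 0.00, 1.25 and 1.66 in control lungs, a difference of −0.90 (SE 0.42). Without control 1 the difference was −1.39 and passed (limma adjusted p = 0.023). The myeloid miR-223-3p was at 0.88, 0.42 and 0.78 in codonopsis lungs and 0.11, 0.72 and 2.45 in control lungs, a difference of −0.40 (SE 0.57), and the highest value was that of control 3. Without control 1 it was −0.89. Lymphocyte miRNAs had a median of 0.06, with 4 of 7 higher, and without control 1 a median of −0.11, with 2 of 7 higher.

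Among epithelial markers, differences were near the size of their errors. The miR-200 family, which keeps cells epithelial by repressing Zeb1 and Zeb2, had a median of −0.02, with miR-200b-3p at 0.13 (SE 0.16) and miR-200a-3p at −0.21 (SE 0.15). The miR-183 cluster had a median of −0.10, with miR-96-5p at −0.26 (SE 0.21) and miR-183-5p at −0.10 (SE 0.22). The 3 detected markers of other organs differed by −0.35 to 0.04, and without control 1 none of them was higher.

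**Figure D4:**
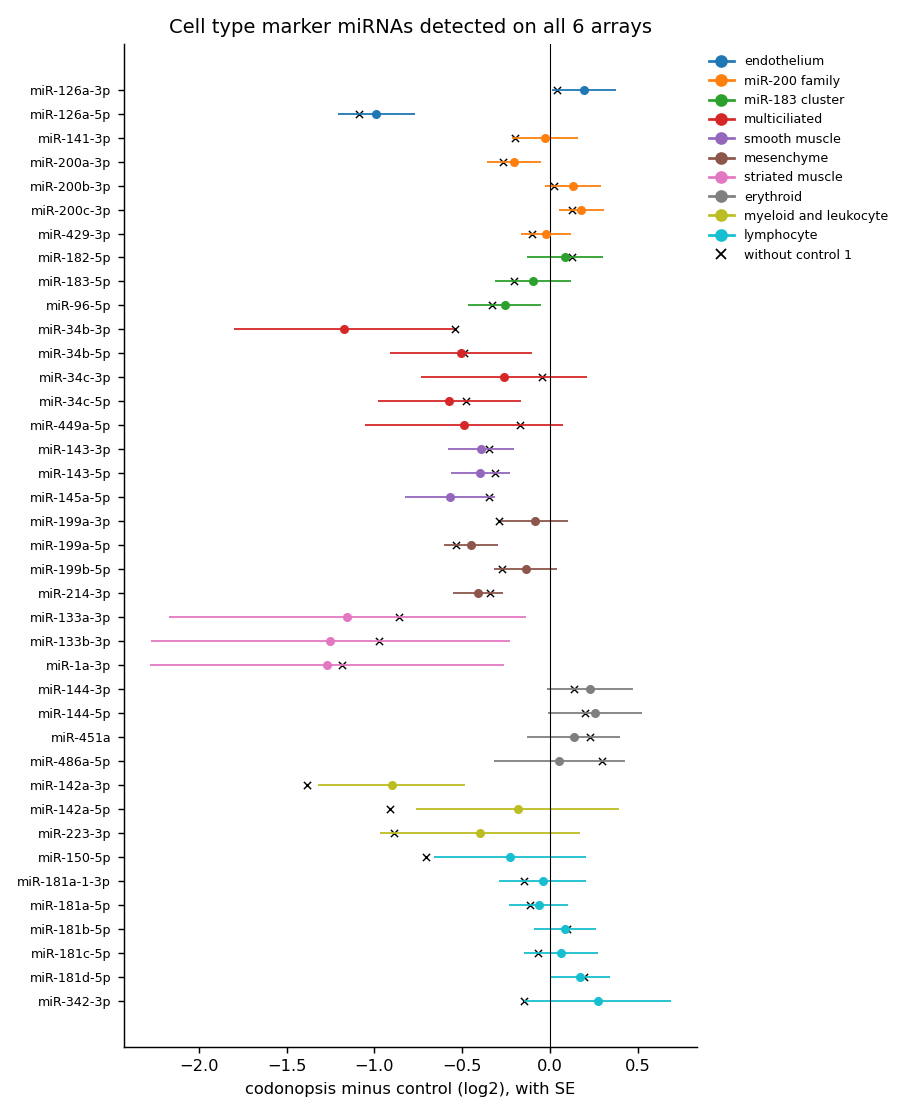
Difference of codonopsis minus control (log2, points with SE bars) for cell type marker miRNAs detected on all 6 arrays, coloured by list, with the difference without control 1 as crosses. All 5 multiciliated, 3 smooth muscle, 4 mesenchymal and 3 striated muscle markers lie below 0 and the 4 erythroid markers above 0.

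With all arrays, no member of the let-7 and miR-29 families passed, nor did miR-21a-5p. The let-7 family, whose members share the seed GAGGUAG and restrain growth genes, had 9 of 10 detected members higher with a median of 0.10, and 2 of them, let-7b-5p and let-7c-5p, had every codonopsis array above every control, with differences of 0.17 (SE 0.11) and 0.15 (SE 0.12). The differences of let-7a-5p and let-7f-5p were 0.11 (SE 0.13) and 0.02 (SE 0.15). The dim let-7k stood at −4.55, −4.52 and −5.40 in codonopsis lungs and −4.78, −5.95 and −6.03 in control lungs, a difference of 0.76 (SE 0.37), and without control 1 it was 1.17 and passed (limma adjusted p = 0.036). Without control 1 the family median was 0.02 and 6 of 10 were higher.

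The profibrotic miR-21a-5p, from the 3′ part of the Vmp1 gene, was at 2.46, 2.52 and 2.63 in codonopsis lungs and 2.71, 2.88 and 3.48 in control lungs. Its difference was −0.48 (SE 0.21, limma adjusted p = 0.352), with every codonopsis array below every control. The miR-29 family, known to repress collagens, had 4 of 5 members lower with a median of −0.19. For miR-29b-3p the levels were 2.15, 1.79 and 2.13 in codonopsis lungs and 1.78, 2.73 and 2.61 in control lungs, a difference of −0.35 (SE 0.26), and without control 1 it was −0.65 and passed (limma adjusted p = 0.036). The 3 detected members with the seed AGCACCA, miR-29a-3p, miR-29b-3p and miR-29c-3p, differed in sign, at 0.03, −0.35 and −0.19.

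Among the 243 miRNAs detected on all 6 arrays and matched to a RefSeq sequence, 11 seeds were shared by 3 or more. Unmatched miRNAs, miR-34c-5p among them, could not enter these groups. The median differences lay between −0.49 for GGCAGUG and 0.13 for AAUACUG. The matched members were miR-34b-5p, miR-449a-5p and miR-34a-5p for GGCAGUG, and miR-200b-3p, miR-200c-3p and miR-429-3p for AAUACUG. The 3 matched miRNAs with the seed CAGUGCA had a median of −0.23, and 1 of them, miR-148b-3p at −0.43 (SE 0.16), lay below every control. Without control 1 the medians of these 3 seeds were −0.17 for GGCAGUG, 0.02 for AAUACUG and −0.46 for CAGUGCA.

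The codonopsis arrays differed among themselves more than controls 2 and 3 did. In 38 tested miRNAs codonopsis 1 and 2, from male mice on row 1 of the slide, were both at least 1 above codonopsis 3, from a female mouse on row 2, and in 0 were both that far below it. These miRNAs were chosen by their values, so no test is given. For miR-669a-5p the levels were −2.92, −2.47 and −5.96 in codonopsis lungs and −7.49, −5.93 and −7.23 in control lungs, a difference of 3.10 (SE 0.91), and without codonopsis 3 it was 4.19. For miR-598-3p they were −2.76, −2.19 and −5.97 in codonopsis lungs and −6.52, −5.80 and −6.35 in control lungs, a difference of 2.59 (SE 0.87), and without codonopsis 3 it was 3.75. On codonopsis 3 both were within the control range.

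Several others of the 38 were low on codonopsis 3 and on control 3 together. For miR-7212-3p the levels were −0.79, −0.33 and −5.09 in codonopsis lungs and −3.08, −1.63 and −7.85 in control lungs, a difference of 2.12 (SE 1.91). For miR-6339 they were −1.27, −0.74 and −5.56 in codonopsis lungs and −4.51, −2.45 and −8 in control lungs, a difference of 2.46 (SE 1.80). For miR-302c-3p, an embryonic stem cell miRNA, they were −1.79, −1.26 and −6.10 in codonopsis lungs and −2.71, −2.61 and −8 in control lungs, a difference of 1.39 (SE 1.81). In each of these 3 miRNAs, codonopsis 3 and control 3 were the lowest arrays of their groups. The minor arm miR-30b-3p was at −1.15, −0.65 and −3.05 in codonopsis lungs and −3.34, −2.25 and −3.46 in control lungs, a difference of 1.40 (SE 0.64). Sex, slide row and array could not be told apart within the codonopsis group.

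**Figure D5:**
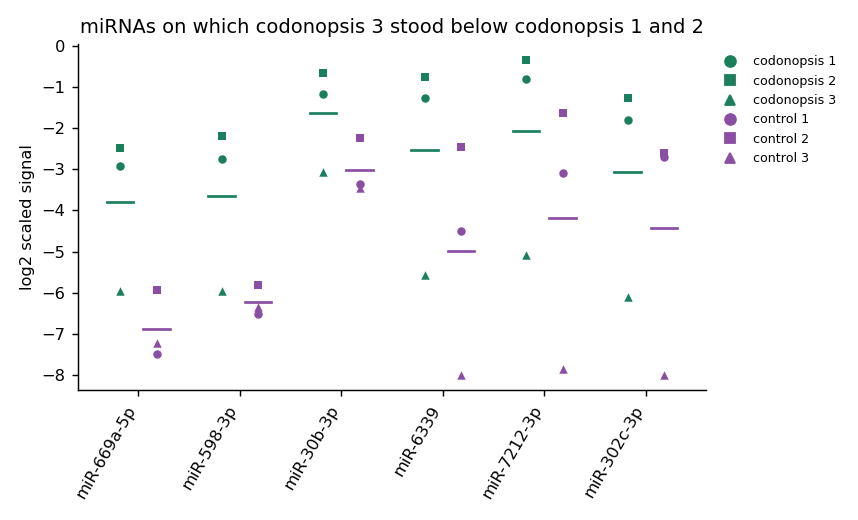
Log2 scaled signal of each array for 6 of the miRNAs on which codonopsis 3 stood at least 1 below codonopsis 1 and 2, with codonopsis arrays in green, control arrays in purple and bars for group means. For miR-6339 codonopsis 3 sits at −5.56 and control 3 at the floor of −8.

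The number of miRNAs that passed depended on control 1. That array was the only male control, so counts without it set codonopsis lungs of both sexes against female controls. Without it 40 miRNAs were higher and 9 lower at a limma adjusted p under 0.05, 10.4% and 2.35% of those tested, and all 4 that passed with all arrays were among them. Of the 40, 17 belonged to the miR-466 group, and for 18 of the 40 every codonopsis array lay above every control array, control 1 included. Among the 17, miR-466a-5p, miR-297c-5p and miR-466p-5p were tested only through their detection in codonopsis lungs, so they are no support for the group. The median excess of control 1 over the other controls was 1.18 for the 40 and −0.63 for the 9, beside 0.02 over all tested miRNAs. Members of the 40 outside the miR-466 group included let-7k and miR-206-3p, of which miR-206-3p also entered through its detection in codonopsis lungs. The lower ones included miR-126a-5p at −1.09, miR-186-5p at −0.73 and miR-148b-3p at −0.57.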

How the data were processed

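Agilent mouse miRNA arrays of 1 colour were hybridised with lung RNA of 9 mice, 1 array each, after TRIzol extraction and Cy3 labelling, per the labels' protocols. The deposited scanner files give background-corrected intensity on a linear scale, made with Feature Extraction 11.5.1.1 per the file headers, while the submitters' processing notes name 10.10. The authors' deposited table of log2 values was used as an alternative only, and how it was normalized is not given in the sources used here.

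Spots marked as non-uniform or outliers (2.86% to 3.28% on these 6 arrays) were left out. The processed signal was averaged over spots, probes and then per miRNA, divided on each array by its 75th percentile (taken over the 289 miRNAs that all 9 arrays detected), floored at 0.00391 (log2 −8) and logged. limma 3.58.1 in R 4.3.3 (lmFit and eBayes, two-sided) used all 9 arrays, with group as factor (6 residual degrees of freedom), with Benjamini-Hochberg adjustment over the 383 miRNAs and a threshold of 0.05. The p-values measure the spread between these mice. The fit was tested on simulated data. For miRNAs that no control detected, the fold sets the codonopsis mean against a control mean. Per array, that mean takes the larger of the miRNA's signal and the lowest detected signal. The lowest detected signal can be that of another miRNA, so the fold is not a strict lower bound. Mature sequences of 312 of the 383 matched RefSeq (GRCm38.p6) by name.

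Alternatives were the total gene signal, normexp (offset 50, on the median and background median signals, since mean signals are not among the columns used), the deposited table, other scalings, the brightest probe, other detection filters, the 6 arrays alone, sex or slide row as covariates, kept marked spots and each array left out. Members and lists were chosen with earlier results of these data known. Named were miRNAs that passed, the 7 higher and 7 lower with the smallest p among those detected on all 6 arrays with groups apart, those detected on all 3 arrays of 1 group and none of the other, up to 2 bright members of each list and partner arms, 51 in all. A further 20 (among them miR-669a-5p, miR-598-3p and miR-3082-5p) were chosen after their values were seen, as were let-7b-5p and let-7c-5p.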

Additional observations from a re-analysis of the deposited data

Results flagged for a closer look

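The difference between codonopsis and control lungs was compared between male and female mice with an interaction term in limma, which left 4 residual degrees of freedom. The male side holds codonopsis 1, codonopsis 2 and control 1, so control 1 is its single control, and sex cannot be told apart from what sets that array apart. Over all tested miRNAs 61 had an adjusted p under 0.05, and those named in the text were as follows, each as the male difference minus the female difference.

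For 6 entries the male difference was the more negative and control 1 was the highest control: miR-574-3p at −3.83, miR-466i-3p at −3.79, miR-466q at −3.50, miR-466f-3p at −3.47, miR-467f at −3.13 and miR-32-3p at −1.70. The value for miR-669n was −1.44, where control 1 was also the highest. For miR-669a-5p and miR-598-3p, which were low on codonopsis 3, the single female codonopsis array, the values were 4.17 and 3.94. The limma adjusted p of these 9 lay between 0.0016 and 0.035. Of these, miR-669a-5p and miR-598-3p were chosen because codonopsis 3 stood apart, so their p is no support for a difference. Nor is that of miR-466q, miR-467f and miR-32-3p, which were also chosen after their values were seen. For all entries with control 1 as the highest control, the male difference rests on that array. Their p gives no support apart from it.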

How the results depend on the processing

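The 4 miRNAs that passed depended on the normexp setting and the scaling. The normexp setting joins background correction with an offset of 50, which shrinks differences of dim miRNAs towards 0. With normexp, with the 75th percentile over all miRNAs and without scaling between arrays 0 miRNAs passed, and with quantile normalization 2 passed, neither of them among the 4. Requiring detection on all 6 arrays left 1, miR-466f-5p, while a filter for detection on at least 1 of the 6 arrays and no filter left 0, where more dim miRNAs entered the adjustment. The deposited log2 table, the total gene signal, the brightest probe, detection in any of the 3 groups, the fit of the 6 arrays, sex, slide row and kept marked spots gave 3 to 6. These were not always the same miRNAs. Of the 4, slide row kept only miR-466f-5p, the total gene signal only miR-466a-5p and miR-466f-5p, and the deposited log2 table none. Leaving out 1 array gave 0 (without codonopsis 1 or control 2) to 49 (without control 1). The median over all tested miRNAs moved between −0.10 with normexp and 0.18 with quantile normalization or in the deposited log2 table, from −0.04. The count of miRNAs whose groups do not overlap, 49, was 21 with normexp (4 above), 30 with the 75th percentile over all miRNAs (25 above) and 86 with no filter (44 above), and 62 to 151 when 1 array was left out. The split also moved with the scaling, since 22 of these 49 lay above the controls, but 43 of 51 with quantile normalization, 49 of 58 in the deposited log2 table and 35 of 45 without scaling. The cause was not tested.

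Of 71 named miRNAs, 46 kept their sign under all 21 alternatives, and the other 25 turned under at least 1 of them. The 21 overstate the stability of the signs. The other detection filters and the fit of the 6 arrays leave each difference unchanged, so no sign could turn there. Slide row as a covariate gave the same differences as leaving out codonopsis 3. With normexp the sign turned for miR-5709-3p (−0.00814), miR-1306-3p (−0.044), miR-206-3p (−0.017), miR-16-1-3p (−0.10) and miR-194-5p (−0.063). With the 75th percentile over all miRNAs it turned for miR-200a-3p (0.0032), miR-29c-3p (0.024), miR-199b-5p (0.071), miR-199a-3p (0.12), miR-183-5p (0.11), miR-181a-5p (0.15) and miR-192-5p (0.19). Without scaling it turned for miR-29c-3p (9.8e-05), miR-199b-5p (0.046), miR-199a-3p (0.10), miR-183-5p (0.088), miR-181a-5p (0.12) and miR-192-5p (0.17). In the deposited log2 table it turned for miR-96-5p (0.055), miR-199a-3p (0.030), miR-183-5p (0.073), miR-181a-5p (0.13) and miR-192-5p (0.30), and with quantile normalization for miR-96-5p (0.062), miR-183-5p (0.24), miR-181a-5p (0.12), miR-192-5p (0.32) and let-7f-5p (−0.017). With the brightest probe it turned for miR-199a-3p (0.0085) and miR-192-5p (0.10), with marked spots kept for miR-302c-3p (−0.16) and miR-192-5p (0.0033), with sex as a covariate for miR-199a-3p (0.015) and with slide row for miR-192-5p (0.080).

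When 1 array was left out, values ranged over −2.26 to 0.31 for miR-466q, −2.04 to 0.29 for miR-467f, −2.10 to 0.34 for miR-574-3p, −2.77 to 0.43 for miR-466f-3p and −2.52 to 0.56 for miR-466i-3p, positive without control 1 only. They ranged over −0.40 to 2.91 for miR-302c-3p and −0.89 to 0.28 for miR-223-3p, in both with the other sign only without control 3. The other ranges were −0.12 to 0.092 for let-7f-5p, −0.15 to 0.094 for miR-181a-5p, −0.27 to 0.078 for miR-183-5p, −0.13 to 0.080 for miR-192-5p, −0.12 to 0.15 for miR-194-5p, −0.29 to 0.085 for miR-199a-3p, −0.27 to 0.014 for miR-199b-5p, −0.23 to 0.20 for miR-29a-3p, −0.15 to 0.57 for miR-342-3p, −0.90 to 0.019 for miR-449a-5p and −0.11 to 0.33 for miR-451a. With 1 array of a group left out, its 2 remaining arrays are assumed to vary like the other groups. No paired analysis was possible because the labels pair no codonopsis mouse with a control mouse, and the arrays were numbered in their order in the series. Dim miRNAs are limited by signal over background, and 3 arrays per group limit the precision of all.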
